A study of Mus musculus with 40 samples.

Results

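The expression of 44 genes of the cell division cycle was followed through rib regeneration in immature and mature mice by bulk RNAseq. The study compares the ages to learn what lets large rib defects heal in immature mice. The genes were chosen by name for their known roles in the cycle and found by gene symbol in the table of normalized expression. All 44 were in the table, among the 21204 genes tested. They comprise 19 genes that start or carry out DNA replication, 20 genes of mitosis, and 5 others, which are Mki67, Ccna2, E2f1, Foxm1 and Mybl2. Each library is total RNA of tissue around a rib of wild-type mice, female and of the C57BL/6 background, ground whole, so it mixes all cell types of the site. The immature group was 7 weeks old, and the mature group was over 10 months old. Tissue was taken at baseline, when it held bone, bone marrow and intercostal muscle, on the day of resection (0dpr, days after resection) and at 2, 5 and 14dpr, which the labels name bone callus. The sample labels describe baseline tissue as collected after resection, whereas the study defines baseline as the state before surgery. Each group held 4 libraries, apart from mature mice at 5dpr with 3, whose replicate 2 was not analysed here. The labels do not say whether a library is 1 mouse, so p-values measure the spread between libraries. For each gene that spread was pooled over all 10 groups in 1 fit, unless a fit of only the libraries compared is named. It is therefore not the spread of the 2 groups compared, and groups differed in spread.

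A dividing cell copies its DNA in S phase and separates the copies in mitosis. In G1, cyclin E (Ccne1, Ccne2) acts with a kinase to start S phase, while Cdc6 and Cdt1 load the ring-shaped Mcm2 to Mcm7 helicase onto replication origins. Cdc45 and the GINS complex, of which Gins2 is a subunit, then switch the helicase on. Pola1 and Prim1 prime the new strands, Pcna clamps the polymerases to DNA, and Rrm1, Rrm2 and Tyms supply nucleotides. In mitosis, Cdk1 with cyclin B (Ccnb1, Ccnb2) drives entry, Plk1 and the Aurora kinases assemble the spindle, and Bub1 and Bub1b check it. Cdc20 and Ube2c then help to mark cyclin B for destruction. E2F transcription factors such as E2f1 are known to activate replication genes, whereas Foxm1 and Mybl2 act on mitosis genes. In bone, the marrow holds many dividing blood cell precursors, and repair brings dividing progenitors into the callus.

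Replication and mitosis genes are known to be switched on through different promoter elements, so the promoters of the 2 lists are shown first. RefSeq windows on the GRCm38.p6 build, of 250 bases before and 50 bases after the start of the gene, were at hand for 36 of the 44 genes. Both strands were searched for TTTNNCGC, in which N is any base, and its matches are called E2F cores here. The search also covered TTTGAA, the cell cycle homology region (CHR), and CCAAT, the box bound by the factor NF-Y. The E2F core was in 9 of 16 replication promoters (56.2%) and in 1 of 17 mitosis promoters (5.88%), beside 5.27% of all 27025 gene windows. The CHR was in 2 of 16 replication promoters (12.5%) and in 12 of 17 mitosis promoters (70.6%), beside 18.1% of all. CCAAT was frequent in both lists, with 12 of 16 and 15 of 17, beside 37.9% of all. All 12 mitosis promoters with a CHR also held CCAAT, a combination found in 7.12% of all windows. Since TTTNNCGC can match both strands a few bases apart, adjoining matches can overlap. These matches are letters in a window and were not tested as binding sites.

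The 250 bases before the start are shown for Mcm5 and Mcm6, helicase genes with E2F cores, for Top2a with CHR elements, and for Cdk1, the 1 mitosis gene with both elements. Each line runs 5′ to 3′ on the strand of its gene, on GRCm38.p6, with every match to an element on either strand in capitals.
Mcm5 (chr8:75109259-75109508, + strand): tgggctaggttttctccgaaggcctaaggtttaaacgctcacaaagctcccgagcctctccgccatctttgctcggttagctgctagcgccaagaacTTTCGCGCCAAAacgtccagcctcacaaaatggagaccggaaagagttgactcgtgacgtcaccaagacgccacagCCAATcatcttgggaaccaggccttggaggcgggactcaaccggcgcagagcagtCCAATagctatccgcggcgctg
Mcm6 (chr1:128359706-128359955, - strand): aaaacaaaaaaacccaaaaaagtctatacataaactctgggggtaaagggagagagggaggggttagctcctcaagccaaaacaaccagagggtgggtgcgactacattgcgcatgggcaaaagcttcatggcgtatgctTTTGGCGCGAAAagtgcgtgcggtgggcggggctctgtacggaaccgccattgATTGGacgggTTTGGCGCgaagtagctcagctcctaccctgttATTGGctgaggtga
Top2a (chr11:99024190-99024439, - strand): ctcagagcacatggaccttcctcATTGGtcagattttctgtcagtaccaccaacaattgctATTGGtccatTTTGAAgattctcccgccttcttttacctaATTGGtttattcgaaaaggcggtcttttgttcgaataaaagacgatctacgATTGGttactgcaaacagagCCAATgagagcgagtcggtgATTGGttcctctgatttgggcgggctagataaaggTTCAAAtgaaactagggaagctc
Cdk1 (chr10:69352913-69353162, - strand): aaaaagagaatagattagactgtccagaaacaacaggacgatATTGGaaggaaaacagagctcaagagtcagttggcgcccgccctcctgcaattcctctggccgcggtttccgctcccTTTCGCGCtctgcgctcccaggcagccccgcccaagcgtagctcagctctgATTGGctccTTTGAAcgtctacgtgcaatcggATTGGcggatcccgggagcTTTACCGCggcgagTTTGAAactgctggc

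In each helicase promoter, E2F cores on both strands overlap in 1 run of capitals, which starts at position -153 from the gene start in Mcm5 and at position -110 in Mcm6. Top2a shows 2 CHR elements, at position -179 and, on the other strand, at position -23, among 6 CCAAT boxes. Cdk1 holds E2F cores at positions -131 and -29 and CHR elements at positions -71 and -15, so the 2 kinds of element alternate in its promoter.

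Libraries held 6057756 to 21537070 counts, with a median of 9087417. Before any comparison, the libraries at 0dpr stood apart in their spread. Levels are given as CPM, counts relative to the size of the library after scaling by the TMM factors of edgeR. The mean log2 CPM of the 44 genes was 3.29, 5.49, 3.66 and 4.91 in the 4 immature 0dpr libraries (replicates 1 to 4) and 4.54, 5.70, 4.22 and 5.58 in the mature ones. At baseline the immature values were 5.76, 5.61, 5.64 and 6.04 and the mature values 6.19, 6.26, 6.32 and 5.94. The low 0dpr libraries were replicates 1 and 3 at both ages. In the same libraries, the mean of 10 erythroid markers, genes of red cell precursors in marrow, was 5.34, 8.37, 6.89 and 8.29 in immature and 7.82, 9.08, 7.6 and 8.96 in mature mice, and replicates 1 and 3 were again the lowest. Summed over the list, erythroid markers ranged from 12646 to 20173 CPM at immature baseline, from 3373 to 17593 at immature 0dpr and from 1953 to 4027 at immature 2dpr. In mature mice these ranges were 15540 to 22620, 12023 to 24420 and 1057 to 3907 CPM. Muscle markers summed to 48424 to 65524 CPM at immature baseline, 56739 to 116440 at 0dpr and 11146 to 16710 at 2dpr. Markers of mesenchymal and bone cells summed to 9569 to 18130 CPM at immature baseline and 36915 to 46622 at immature 14dpr. In 7 marker lists of 10 genes each, no gene was at 0 in every library of a group. In whole tissue, fewer dividing cells and less RNA per dividing cell cannot be told apart. Counts from fits with a marker mean as a covariate are given beside the results they change.

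**Figure D1:**
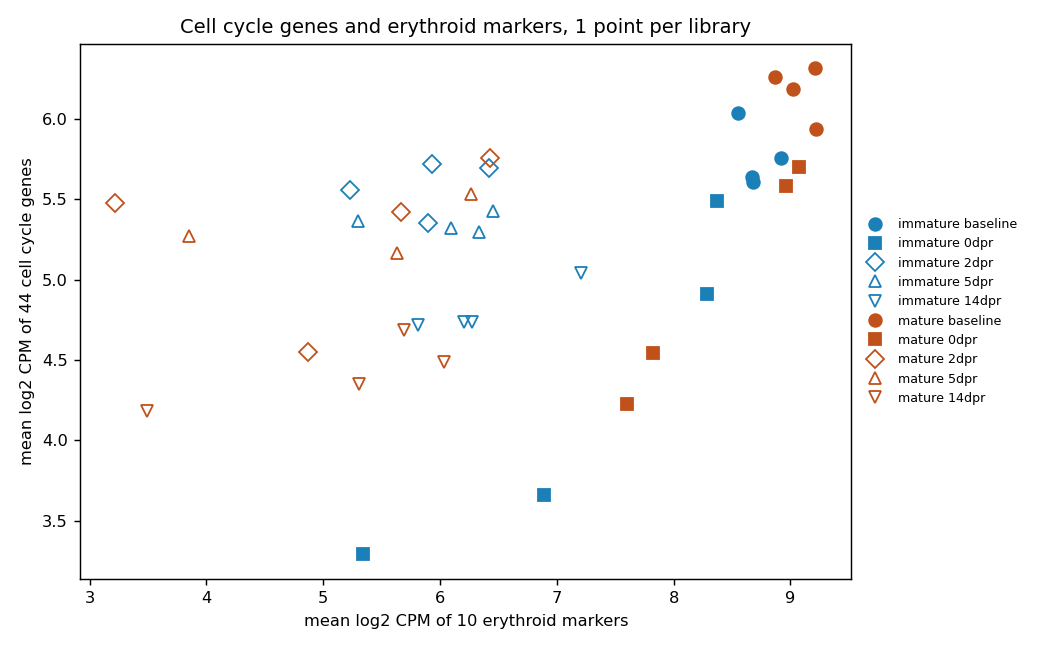
Mean log2 CPM of the 44 cell cycle genes (vertical axis) against mean log2 CPM of 10 erythroid markers (horizontal axis), 1 point for each of 39 libraries, with colour for age and shape for stage. Baseline and 0dpr libraries (filled) spread along a rising band, whereas callus libraries from 2dpr on (open) lie at lower erythroid levels than every baseline library and overlap those of immature 0dpr, with the 2dpr cell cycle level between 4.55 and 5.76 in mature mice.

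Across stages, the group means of both lists were highest at baseline, lowest at 0dpr in immature and at 14dpr in mature mice, and between these at 2 and 5dpr. In immature mice, the mean log2 CPM of the replication list was 5.81 ± 0.23 (SD, n = 4; values in mean log2 CPM) at baseline, 4.43 ± 0.91 at 0dpr, 5.61 ± 0.17 at 2dpr, 5.28 ± 0.0338 at 5dpr and 4.91 ± 0.18 at 14dpr. The mitosis list gave 5.75 ± 0.15, 4.26 ± 1.15, 5.59 ± 0.18, 5.43 ± 0.0689 and 4.75 ± 0.18. In mature mice, the replication list was 6.19 ± 0.15, 5.14 ± 0.66, 5.40 ± 0.49, 5.28 ± 0.20 (n = 3) and 4.46 ± 0.25, and the mitosis list 6.18 ± 0.19, 4.95 ± 0.85, 5.26 ± 0.58, 5.39 ± 0.18 and 4.41 ± 0.19. Baseline held the highest group mean for 27 of 44 genes in immature mice and for 42 of 44 in mature mice. In immature mice, 15 genes were highest at 2dpr and 2 at 5dpr, and 32 were lowest at 0dpr. By contrast, 41 of 44 genes were lowest at 14dpr in mature mice. Mature Gins2 and E2f1 were the exceptions to the baseline peak, with their highest mean at 5dpr.

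**Figure D2:**
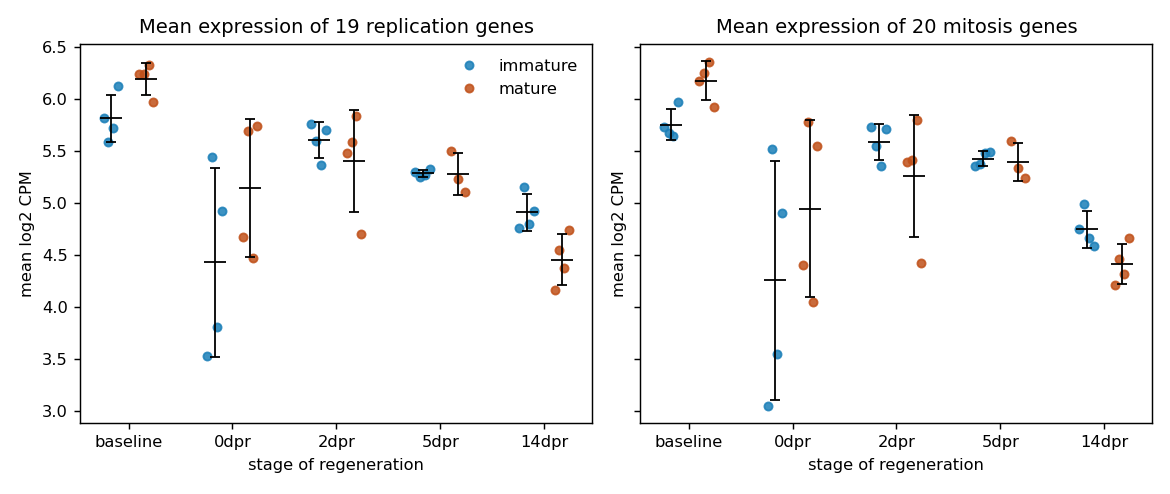
Mean log2 CPM of the 19 replication genes (left) and the 20 mitosis genes (right) by stage, with 1 point per library, the horizontal mark at the group mean and bars of 1 SD. Both panels have the widest spread at 0dpr, and mature 14dpr has the lowest means of the callus stages, at 4.46 and 4.41.

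Per kilobase of exon, members differed widely in level at baseline. Mki67, a protein that coats mitotic chromosomes and is the usual stain for dividing cells, had the highest level, with 74.9 CPM per kb in immature and 111 in mature mice. Pcna followed with 65.1 and 75.9 CPM per kb. Gins2 was the lowest at 2.11 and 2.71. The smallest count of any member in any library was 10 reads.

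Among replication genes, Mcm5 in immature mice was at 108, 105, 105 and 134 CPM at baseline, 23.2, 83.3, 24.2 and 55.0 at 0dpr, 119.5, 96.7, 82.8 and 107 at 2dpr, 67.3, 68.1, 69.0 and 73.2 at 5dpr and 49.2, 66.5, 48.7 and 59.5 at 14dpr. In mature mice Mcm5 was at 157, 173, 174 and 128 CPM at baseline, 45.8, 98.5, 41.3 and 114 at 0dpr, 88.7, 97.8, 108 and 46.9 at 2dpr, 91.0, 73.3 and 65.5 at 5dpr and 29.6, 33.4, 37.9 and 51.8 at 14dpr. Every 0dpr library lay below every baseline library of its age, and in mature mice every 14dpr library lay below every 5dpr library. The clamp gene Pcna in immature mice was at 154, 134, 159 and 177 CPM at baseline, 35.1, 116, 60.4 and 92.0 at 0dpr, 170.4, 149, 141 and 164 at 2dpr, 116, 114, 104 and 103 at 5dpr and 107, 124, 101 and 107 at 14dpr. Mature Pcna was at 176, 171, 215 and 167 CPM at baseline, 62.3, 155, 64.5 and 152 at 0dpr, 161, 176, 186 and 109 at 2dpr, 141, 119 and 100.1 at 5dpr and 72.7, 88.6, 77.8 and 99.0 at 14dpr. Its 2dpr libraries overlapped baseline at both ages. Ccne1, the G1 cyclin, was at 23.6, 15.8, 18.4 and 29.4 CPM at immature baseline, 1.49, 15.5, 2.46 and 8.07 at 0dpr, 17.2, 14.5, 11.5 and 16.7 at 2dpr, 10.9, 15.3, 10.8 and 13.3 at 5dpr and 7.8, 12.3, 8.68 and 7.86 at 14dpr. In mature mice the Ccne1 values were 28.1, 25.1, 25.7 and 25.2 CPM at baseline, 10.2, 21.5, 7.53 and 23.5 at 0dpr, 11.8, 12.7, 17.5 and 6.29 at 2dpr, 14.6, 12.4 and 8.27 at 5dpr and 4.58, 5.59, 5.01 and 6.54 at 14dpr. Of the 0dpr libraries, replicate 1 of the immature group had the lowest Ccne1 value.

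Among mitosis genes, Cdk1 was at 60.2, 60.2, 58.4 and 64.5 CPM at immature baseline, 5.83, 46.7, 10.4 and 30.9 at 0dpr, 73.4, 66.6, 55.7 and 71.1 at 2dpr, 62.8, 56.2, 55.4 and 48.0 at 5dpr and 34.7, 42.8, 35.8 and 26.1 at 14dpr. In mature mice Cdk1 was at 73.7, 80.7, 96.4 and 61.1 CPM at baseline, 20.7, 56.6, 15.4 and 50 at 0dpr, 61.0, 63.4, 74.6 and 25.3 at 2dpr, 67.2, 61.5 and 52.5 at 5dpr and 29.5, 32.4, 21.5 and 32.7 at 14dpr. Immature 2dpr and baseline libraries overlapped, whereas all immature 0dpr libraries were below both. Its partner Ccnb1 was at 53.7, 46.7, 52.5 and 65.1 CPM at immature baseline, 7.77, 47.0, 12.2 and 26.6 at 0dpr, 56.3, 57.7, 54.5 and 67.8 at 2dpr, 49.8, 48.3, 49.2 and 43.6 at 5dpr and 28.9, 42.0, 26.5 and 26.1 at 14dpr. Mature Ccnb1 was at 80.9, 68.8, 97.7 and 61.0 CPM at baseline, 20.1, 68.5, 17 and 64.7 at 0dpr, 53.7, 54.2, 76.7 and 20.2 at 2dpr, 49.9, 48.7 and 47.2 at 5dpr and 20.5, 21.3, 21.1 and 30.4 at 14dpr. The mature 2dpr value of replicate 4 was less than that of any 5dpr library. Top2a, the topoisomerase that untangles sister chromatids, was at 323, 301, 305 and 396 CPM at immature baseline, 56.5, 299, 77.0 and 168 at 0dpr, 242, 251, 216 and 261 at 2dpr, 241, 235, 248 and 239 at 5dpr and 143, 168, 148 and 149 at 14dpr. In mature mice Top2a was at 474, 482, 544 and 364 CPM at baseline, 106, 361, 96.5 and 301 at 0dpr, 219, 210.5, 363 and 98.3 at 2dpr, 255, 214 and 195 at 5dpr and 109, 125, 104 and 149 at 14dpr. The 5dpr libraries of Top2a were closer together than those of 0dpr at both ages.

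Of the other members, Mki67 was at 775, 631, 584 and 1022 CPM at immature baseline, 105, 796, 169 and 447 at 0dpr, 321, 349, 336 and 413 at 2dpr, 322, 383, 333 and 468 at 5dpr and 199, 251, 203 and 206 at 14dpr. In mature mice Mki67 was at 1176, 1211, 1185 and 882 CPM at baseline, 323, 802, 221 and 407 at 0dpr, 289.6, 266, 566 and 166 at 2dpr, 346, 247 and 284 at 5dpr and 137, 194, 164 and 192 at 14dpr. No callus library from 2dpr on reached the lowest baseline library of its age. E2f1 was at 10.2, 8.25, 5.90 and 10.8 CPM at immature baseline, 5.08, 9.49, 4.19 and 5.98 at 0dpr, 16.9, 15.4, 15.7 and 15.7 at 2dpr, 12.5, 15.0, 13.9 and 15.6 at 5dpr and 12.3, 10.2, 12.6 and 12.1 at 14dpr. In mature mice E2f1 was at 10.1, 18.1, 11.4 and 11 CPM at baseline, 5.96, 7.24, 4.43 and 6.95 at 0dpr, 17.6, 14.9, 12.2 and 13.0 at 2dpr, 18.3, 15.5 and 11.1 at 5dpr and 11.9, 10.1, 11.8 and 11.5 at 14dpr. Unlike Mki67, immature E2f1 was higher in each 2dpr and 5dpr library than in any baseline library.

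Resection was compared first with baseline. At 0dpr, cell cycle genes of both lists were lower than at baseline at both ages, at a median of 44.8% of the baseline mean in immature mice and 49.98% in mature mice. In immature mice, 39 of 44 genes fell and 0 rose, beside 4.66% of all genes that fell and 10.6% that changed in either direction. These were 19 of 19 replication genes, 17 of 20 mitosis genes and 3 of 5 others. The median log2 fold change was -1.13 for replication and -1.18 for mitosis, against 0 over all genes. The largest fall in each list was that of Ccne1 (log2 fold change ± SE -1.66 ± 0.40, adjusted p = 0.00858, edgeR's quasi-likelihood test with Benjamini-Hochberg adjustment), Cdk1 (-1.38 ± 0.38, adjusted p = 0.0181) and Mybl2 (-1.20 ± 0.39, adjusted p = 0.0423). The smallest among replication genes was that of Pola1, a subunit of DNA polymerase alpha (-0.80 ± 0.25, adjusted p = 0.0367). Nusap1, Cenpe, Cenpf, Mki67 and E2f1 did not pass, with log2 fold changes of -1.16, -0.97, -1.02, -0.99 and -0.51 and adjusted p from 0.0663 to 0.134. Nusap1 binds spindle microtubules, and Cenpe and Cenpf act at the kinetochore. The mean of Mcm5 went from 113 ± 14.0 CPM at baseline to 46.4 ± 28.7 CPM (SD, n = 4; -1.29 ± 0.30, adjusted p = 0.00701). Erythroid, B cell progenitor and granulocyte progenitor markers had 0 of 10 genes each called by edgeR (4, 2 and 4 at an unadjusted p under 0.05), with median log2 fold changes of -1.15, -0.91 and -1.29. The count was 4 of 44 without immature 0dpr replicate 3, 8 without replicate 1, 14 without baseline replicate 6 and 25 without baseline replicate 2. It was 7 with the erythroid marker mean as a covariate, 4 with the muscle marker mean, and 0 when edgeR was fitted to only the 8 libraries compared (41 genes at an unadjusted p under 0.05; 41 genes were called by DESeq2).

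In mature mice at 0dpr, 33 of 44 genes fell and 0 rose, beside 10.6% of all genes that fell and 22.5% that changed in either direction. These were 15 replication genes, 14 mitosis genes and 4 others, with medians of -0.97 and -1.02 for the 2 main lists. Uhrf1, which helps to copy DNA methylation, led the replication list (-1.20 ± 0.34, adjusted p = 0.00952). Cenpe led the mitosis list (-1.58 ± 0.37, adjusted p = 0.00195) and Foxm1 the others (-1.63 ± 0.32, adjusted p = 0.000466). The smallest changes in each list were those of Rrm1 (-0.68 ± 0.25, adjusted p = 0.0449), Ube2c (-0.67 ± 0.34, adjusted p = 0.155) and Ccna2 (-0.79 ± 0.36, adjusted p = 0.118), of which the latter pair did not pass. Mki67 fell (-1.35 ± 0.38, adjusted p = 0.0101), as did E2f1 (-1.05 ± 0.22, adjusted p = 0.000838). Granulocyte progenitor markers fell in 7 of 10 genes and muscle markers rose in 10 of 10. With the muscle marker mean as a covariate edgeR called 0 of 44 genes (6 at an unadjusted p under 0.05), and the count was 9 without mature 0dpr replicate 3 and 12 without replicate 1.

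The step from 0 to 2dpr asks how division genes respond in the first days after resection. In immature mice genes of both lists rose, among them helicase, clamp, kinase and spindle genes. Of the 44 genes, 29 rose and 0 fell, beside 21.8% of all genes that rose and 44% that changed in either direction. These were 13 of 19 replication genes, 14 of 20 mitosis genes and 2 of 5 others, and the medians were 1.01 and 1.04. Gins2 rose the most, from 4.41 ± 2.72 CPM (SD, n = 4) at 0dpr to 17.5 ± 2.75 CPM at 2dpr (1.99 ± 0.30, adjusted p = 1.56e-06). The kinesin Kif20a, needed for cytokinesis, rose from 19.2 ± 13.1 CPM to 69.1 ± 8.64 CPM (1.85 ± 0.32, adjusted p = 1.22e-05). Plk1 (1.70 ± 0.36, adjusted p = 0.000205), Foxm1 (1.42 ± 0.32, adjusted p = 0.000447) and E2f1 (1.36 ± 0.22, adjusted p = 4.29e-06) rose as well, with no overlap between the libraries of the 2 stages. The test on these same libraries had picked them, so the lack of overlap adds no further result. How many of all genes lacked overlap was not computed. Cdk1 (1.51 ± 0.38, adjusted p = 0.00136), Pcna (1.04 ± 0.25, adjusted p = 0.000842) and Mcm5 (1.13 ± 0.30, adjusted p = 0.00228) also passed. At the other end, Pola1, Nusap1 and Mki67 had log2 fold changes of 0.34, 0.05 and -0.10 and did not pass. Over the same step, monocyte and macrophage markers rose in 10 of 10 genes, muscle markers fell in 10 of 10, and erythroid markers fell in 8 of 10. The count was 0 of 44 with the muscle marker mean as a covariate (1 at an unadjusted p under 0.05), 43 with the erythroid mean, 18 in a fit of only the libraries compared, and 19 without immature 0dpr replicate 3.

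The same step in mature mice gave fewer calls. Of the 44 genes, 7 rose and 1 fell, beside 47.6% of all genes called in either direction, 22.7% that rose and 24.9% that fell, so that a smaller share of the 44 than of all genes was called. The medians were 0.34 for replication and 0.26 for mitosis. Gins2 rose from 5.42 ± 1.80 CPM to 15.7 ± 5.14 CPM (1.53 ± 0.30, adjusted p = 5.81e-05) and E2f1 from 6.14 ± 1.26 CPM to 14.4 ± 2.40 CPM (1.23 ± 0.22, adjusted p = 1.70e-05), both without overlap. Here too the lack of overlap adds no further result, since the test on these same libraries had picked both genes. Cenpe (1.12 ± 0.36, adjusted p = 0.0108), Foxm1 (1.01 ± 0.32, adjusted p = 0.00961), Plk1 (0.98 ± 0.36, adjusted p = 0.0215), Kif20a (0.94 ± 0.31, adjusted p = 0.0122) and the thymidylate synthase gene Tyms (0.67 ± 0.23, adjusted p = 0.0184) passed with overlapping libraries. Ube2c, the ubiquitin-conjugating enzyme of mitotic exit, fell from 41.0 ± 20.3 CPM to 21.0 ± 8.69 CPM (-0.97 ± 0.34, adjusted p = 0.0193). Its 0dpr libraries were 22.6, 57.5, 24.4 and 59.6 CPM and its 2dpr libraries 30.6, 26.0, 12.2 and 15.3 CPM. The smallest changes in each list were those of Cdt1, Cenpa and Ccna2, with log2 fold changes of -0.03, -0.03 and -0.13. Over this step muscle and erythroid markers fell in 10 of 10 genes each, and monocyte and macrophage markers rose in 9 of 10. Summed over the lists, muscle went from 95194 to 10796 CPM, erythroid from 17517 to 2418 CPM and monocyte and macrophage from 1578 to 8101 CPM (means, n = 4). Mature 2dpr replicate 4 had the lowest mean of the 44 genes at that stage, 4.55 log2 CPM beside 5.42 to 5.76 in the other libraries. Without it 16 genes were called, without mature 0dpr replicate 2 there were 14, and without 0dpr replicate 1 or 3 there were 4. The covariate fits gave 33 genes with the erythroid mean and 0 with the muscle mean (6 at an unadjusted p under 0.05), and the fit of only the libraries compared gave 2. The fitted log2 fold change turned for Ube2c with the erythroid mean and for Cenpe, Tyms, Kif20a and Foxm1 with the muscle mean.

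**Figure D3:**
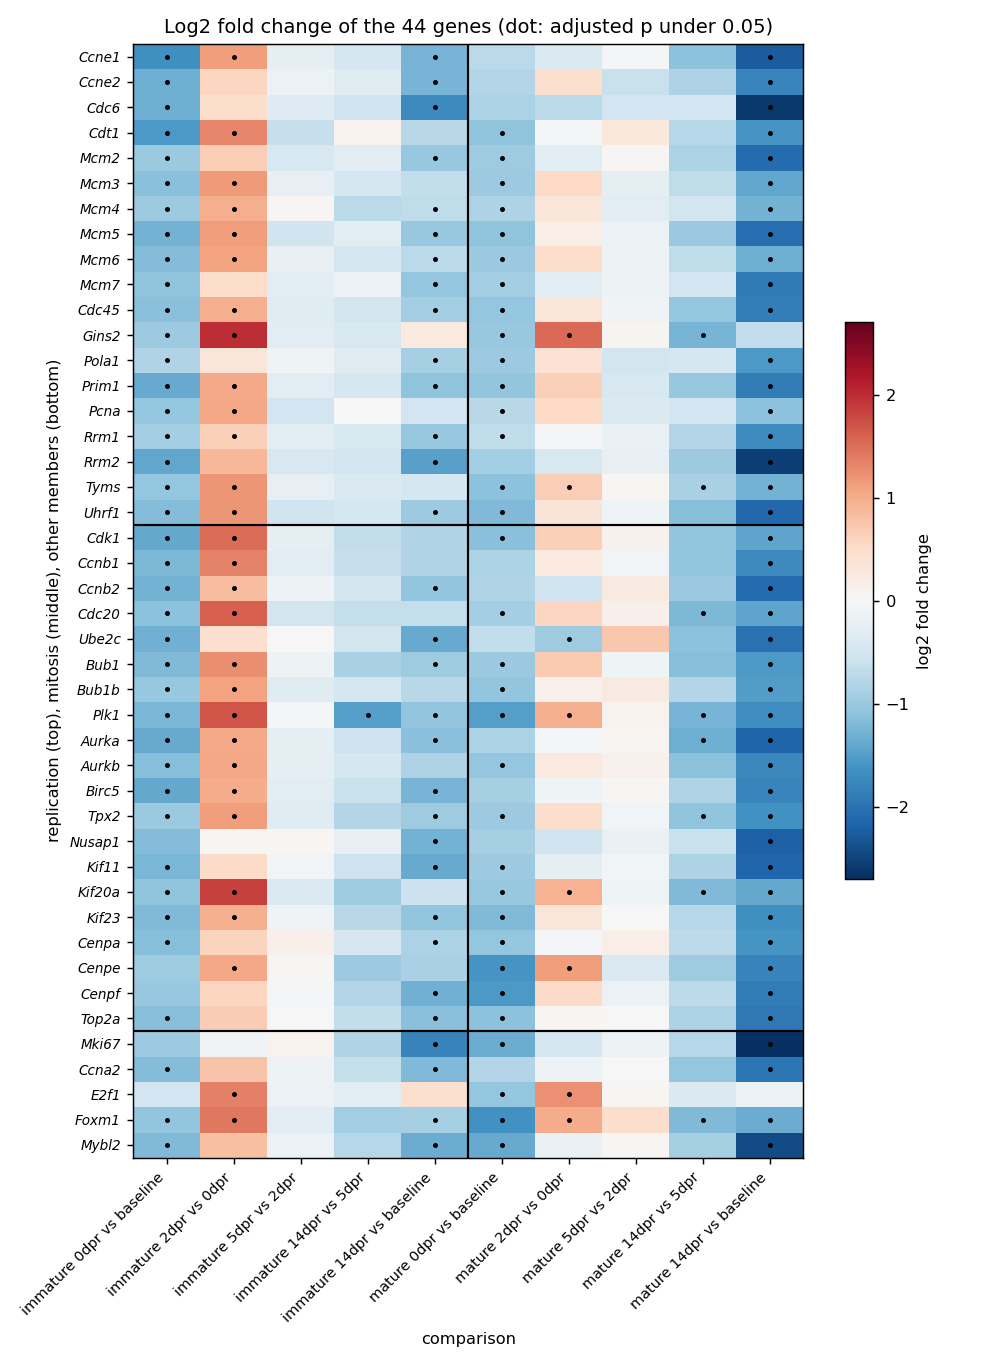
Log2 fold change of each of the 44 genes (rows, in the 3 lists) in 10 comparisons between stages (columns), red for higher and blue for lower in the first-named stage, with a dot where the adjusted p was under 0.05. The 0dpr vs baseline columns are blue at both ages with 39 and 33 dots, and the 2dpr vs 0dpr columns are red in immature mice with 29 dots and mixed in mature mice with 8.

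The comparison of the 2dpr callus with baseline was added after the data were seen. In immature mice, 16 of 44 genes had a 2dpr mean above baseline, with a median of 85.2% of the baseline mean, and 6 were called, 3 in each direction, beside 37.3% of all genes, 18.7% that rose and 18.6% that fell. Gins2 was at 7.31, 7.94, 9.19 and 10.1 CPM at baseline and 19.6, 14.9, 15.3 and 20.1 CPM at 2dpr, and rose (1.01 ± 0.29, adjusted p = 0.00515). Kif20a was at 43.2, 38.6, 36.1 and 44.8 CPM and then 70.8, 68.3, 58.1 and 79.1 CPM (0.76 ± 0.31, adjusted p = 0.0478). E2f1 was the third gene above baseline (0.85 ± 0.21, adjusted p = 0.00171). In none of these 3 did the libraries overlap, though the test on these same libraries had picked them. Below baseline were Nusap1, at 68.1, 65.5, 72.2 and 80.2 CPM and then 34.2, 33.3, 28.6 and 36.0 CPM (-1.11 ± 0.42, adjusted p = 0.0330), and Ube2c, at 57.2, 57.4, 50.5 and 58.7 CPM and then 38.5, 27.4, 23.4 and 35.3 CPM (-0.85 ± 0.34, adjusted p = 0.0468). Mki67 was the third (-1.09 ± 0.38, adjusted p = 0.0234). As fitted ratios to baseline, Nusap1 was at 0.462 and Kif20a at 1.70, although both act on the spindle. In mature mice 0 genes rose and 24 fell, beside 20.8% of all genes that fell and 40% in either direction. Mki67 (-1.79 ± 0.39, adjusted p = 0.000323), Ube2c (-1.63 ± 0.34, adjusted p = 0.000225) and Cdc6 (-1.58 ± 0.40, adjusted p = 0.00186) led, whereas Gins2 and E2f1 had positive log2 fold changes of 0.50 and 0.19 that did not pass. Kif20a (-0.09 ± 0.30, adjusted p = 0.839) and Pcna (-0.21 ± 0.24, adjusted p = 0.539) changed the least of the mitosis and replication lists. The immature count was 21 in a fit of only the libraries compared. With the muscle mean as a covariate it was 2, with 0 higher and 2 lower, and Kif20a turned to a negative value. Without baseline replicate 6 the immature count was 2. It was 3 without baseline replicate 4 or any 1 of the 2dpr libraries, and 4 without baseline replicate 2 or 3. With the erythroid mean as a covariate, immature Nusap1 and Mki67 and mature Cdc6 turned to positive values. In that fit 7 genes were higher and 0 lower in immature mice, and 2 were higher and 0 lower in mature mice. Neither covariate fit kept immature genes called in both directions. Without mature 2dpr replicate 4 the mature count was 13.

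**Figure D4:**
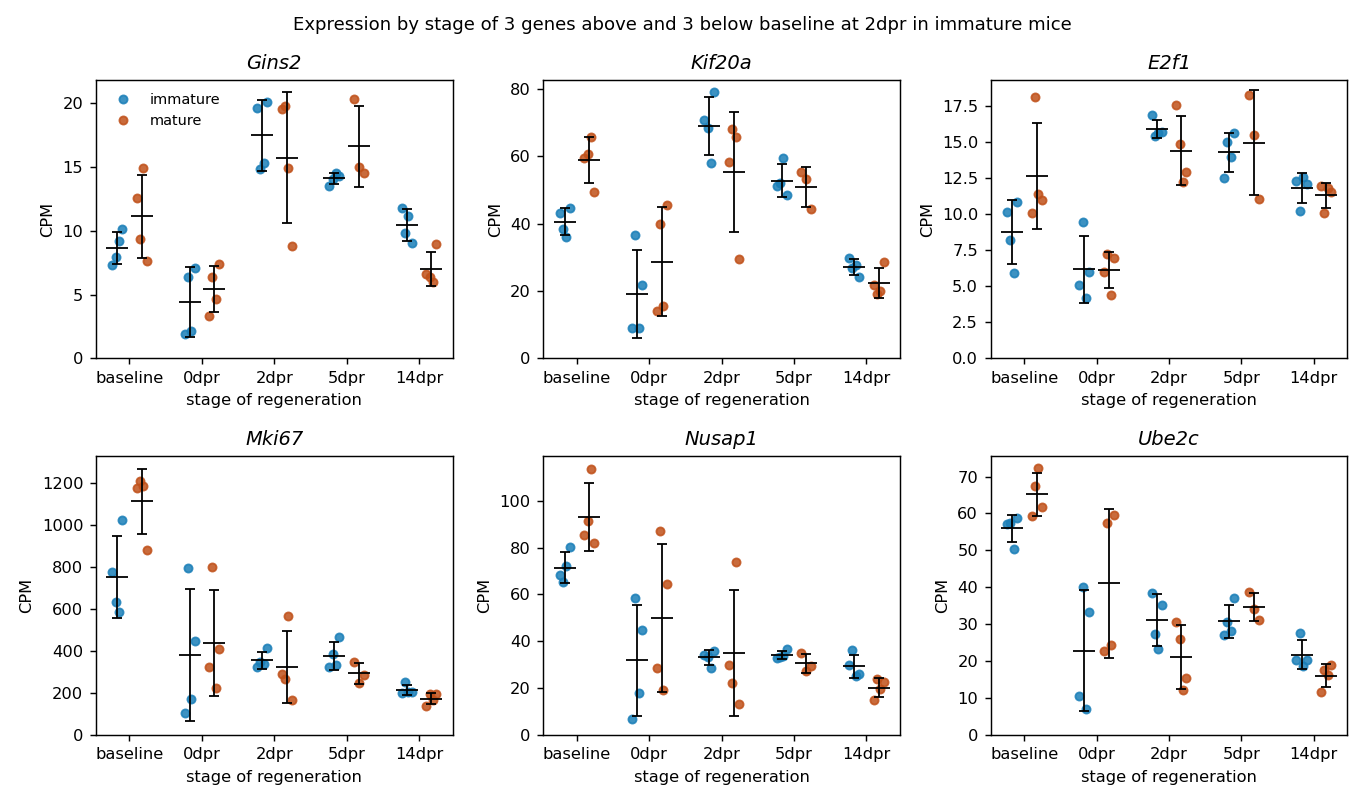
CPM of Gins2, Kif20a and E2f1 (top) and Mki67, Nusap1 and Ube2c (bottom) by stage, with 1 point per library, marks at the group mean and bars of 1 SD. In immature mice the top genes are above baseline at 2dpr, such as Gins2 at 17.5 against 8.65 CPM, and the bottom genes are below it, such as Mki67 at 355 against 753 CPM.

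Between 2 and 5dpr, no cell cycle gene passed the test at either age. In immature mice 0 of 44 genes were called by edgeR (1 at an unadjusted p under 0.05), beside 8.05% of all genes, and DESeq2 called 0. The median change was -0.31 for replication genes, of which 18 of 19 had a negative value, and -0.14 for mitosis genes, of which 17 of 20 did. The largest value in each list was that of Cdt1 (-0.61 ± 0.39, adjusted p = 0.417), Cdc20 (-0.50 ± 0.29, adjusted p = 0.372) and Foxm1 (-0.31 ± 0.31, adjusted p = 0.671). In mature mice 0 genes were called (0 at an unadjusted p under 0.05), beside 14.5% of all genes, and DESeq2 called 0, with medians of -0.16 and 0.01. Ccne2 (-0.60 ± 0.39, adjusted p = 0.332), Ube2c (0.72 ± 0.36, adjusted p = 0.191) and Foxm1 (0.47 ± 0.33, adjusted p = 0.374) had the largest values of their lists. The immature count was 7 in a fit of only the libraries compared, and the mature count was 1 without mature 2dpr replicate 4.

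From 5 to 14dpr, 5 of 20 mitosis genes, 2 of 19 replication genes and 1 of 5 others fell in mature mice. These 8 of 44 genes stood against 0 that rose, beside 2.23% of all genes that fell and 4.18% in either direction, and 44 of 44 had a negative log2 fold change. The mitosis genes among them were Aurka (-1.31 ± 0.38, adjusted p = 0.0384), Cdc20 (-1.22 ± 0.32, adjusted p = 0.0217), Plk1 (-1.26 ± 0.37, adjusted p = 0.0478), Kif20a (-1.18 ± 0.33, adjusted p = 0.0333) and the spindle assembly factor Tpx2 (-1.08 ± 0.32, adjusted p = 0.0449). The replication genes were Gins2 (-1.24 ± 0.31, adjusted p = 0.0138) and Tyms (-0.88 ± 0.25, adjusted p = 0.0346), and the last was Foxm1 (-1.19 ± 0.33, adjusted p = 0.0339). All 8 had every 14dpr library below every 5dpr library. They were picked by the test on these same libraries, so this separation adds no further result. The share of all genes so separated was not computed. The smallest changes in each list were those of Pola1 (-0.45 ± 0.27, adjusted p = 0.393), Nusap1 (-0.60 ± 0.45, adjusted p = 0.511) and E2f1 (-0.40 ± 0.23, adjusted p = 0.358). Mature Plk1 was at 30.7, 19.2 and 17.6 CPM at 5dpr and 9.76, 10.8, 8.47 and 8.52 CPM at 14dpr, without overlap. In immature mice Plk1 alone fell (-1.48 ± 0.35, adjusted p = 0.0131), from 43.3, 19.4, 26.2 and 27.3 CPM to 8.65, 11.6, 11.1 and 10.2 CPM, beside 1.45% of all genes that fell and 3.18% in either direction. The largest values in the other lists were those of Mcm4 (-0.74 ± 0.26, adjusted p = 0.119) and Foxm1 (-0.95 ± 0.32, adjusted p = 0.10). The immature medians were -0.44 for replication and -0.64 for mitosis, and the mature medians -0.83 and -1.03. With only the libraries compared in the fit, 22 immature and 40 mature genes were called. The mature count was 17 with the erythroid mean as a covariate and 0 to 5 when any 1 of the 7 libraries was left out, lowest without 5dpr replicate 1 and highest without 14dpr replicate 4. The immature count was 0 without 5dpr replicate 2, 3 by DESeq2 and 3 and 4 with the muscle and erythroid means as covariates.

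By 14dpr, expression was below baseline in most genes, at a median of 49.98% of the baseline mean in immature mice and 29.3% in mature mice. In immature mice 31 of 44 genes fell and 0 rose, beside 15.1% of all genes that fell and 31.4% in either direction. The largest falls in the replication, mitosis and remaining lists were those of Cdc6 (-1.72 ± 0.41, adjusted p = 0.00133), Ube2c (-1.36 ± 0.34, adjusted p = 0.00218), with Kif11 level with it (-1.36 ± 0.35, adjusted p = 0.00230), and Mki67 (-1.81 ± 0.39, adjusted p = 0.000392). Gins2 (0.27 ± 0.29, adjusted p = 0.520) and E2f1 (0.42 ± 0.22, adjusted p = 0.137) had positive values that did not pass, and Kif20a (-0.58 ± 0.31, adjusted p = 0.159) and Pcna (-0.51 ± 0.25, adjusted p = 0.118) did not pass either. In mature mice 42 of 44 genes fell, beside 16.4% of all genes that fell and 33.5% in either direction, and the 2 that did not pass were again Gins2 (-0.67 ± 0.29, adjusted p = 0.0757) and E2f1 (-0.16 ± 0.21, adjusted p = 0.618). Mki67 (-2.7 ± 0.40, adjusted p = 1.93e-06), Cdc6 (-2.61 ± 0.43, adjusted p = 8.36e-06) and Nusap1 (-2.21 ± 0.43, adjusted p = 0.000108) led the falls of their lists, whereas Kif20a (-1.39 ± 0.31, adjusted p = 0.000620) fell the least of the mitosis genes. Pcna fell as well (-1.11 ± 0.25, adjusted p = 0.000580). Erythroid and granulocyte progenitor markers fell in 10 of 10 genes each at both ages. With the erythroid mean as a covariate, edgeR called 0 immature genes (2 at an unadjusted p under 0.05) and 1 mature gene.

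Age was compared within each stage, as immature against mature. In edgeR's test 0 of 44 genes were called at baseline, 0, 2, 5 and 14dpr, with 1, 13, 0, 0 and 0 genes at an unadjusted p under 0.05, and DESeq2 called 0 at every stage. The shares of all genes called were 0.585%, 0.726%, 0.627%, 0% and 0.00943%. At an unadjusted p under 0.05 the shares of all genes were 11.7%, 10.7%, 13.3%, 5.1% and 4.57%. At baseline all 44 log2 fold changes were negative, with a median of -0.42, led by Cenpe (-0.66 ± 0.36, adjusted p = 0.487), Mybl2 (-0.59 ± 0.37, adjusted p = 0.581) and Uhrf1 (-0.54 ± 0.33, adjusted p = 0.573) in their lists. At 0dpr, 42 of 44 were negative with a median of -0.55, led by Ccne1 (-1.19 ± 0.40, adjusted p = 0.188), Ccnb2 (-1.0 ± 0.34, adjusted p = 0.198) and Ccna2 (-0.70 ± 0.37, adjusted p = 0.50) in their lists. Same-numbered libraries of the ages had correlated deviations at this stage (0.109 to 0.207), but the labels give only a replicate number and name no pairs. The mean of the 44 genes was higher in the mature library at all 4 numbers. With the replicate number as a block edgeR again called 0 genes (19 at an unadjusted p under 0.05). At 2dpr, 37 of 44 were positive with a median of 0.19, led by Bub1b (0.57 ± 0.33, adjusted p = 0.478), Mybl2 (0.56 ± 0.38, adjusted p = 0.548) and Cdt1 (0.55 ± 0.38, adjusted p = 0.562) in their lists. At 5dpr the signs were divided evenly, 22 each way, with Mcm4 at 0.40, Plk1 at 0.36 and Mybl2 at 0.37 as the largest of their lists. At 14dpr, 43 of 44 were positive with a median of 0.38, led by Ccne1 (0.75 ± 0.41, adjusted p = 1.00), Aurka (0.66 ± 0.36, adjusted p = 1.00) and Mybl2 (0.49 ± 0.40, adjusted p = 1.00) in their lists. The 44 genes are measured in the same libraries, so the number with one sign is not a count of independent results. Without immature 0dpr replicate 2, 10 genes were called at 0dpr. In fits of only the libraries compared, 4 genes were called at baseline and 0 at each later stage. Those fits put 36, 0, 3, 3 and 28 of the 44 genes at an unadjusted p under 0.05 at baseline, 0, 2, 5 and 14dpr. The number at that level therefore depended on which libraries gave the spread.

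The difference between the ages in the step from 0 to 2dpr was tested as an interaction. In edgeR's test 0 of 44 genes passed, beside 0.0613% of all genes, and DESeq2 called 0. At an unadjusted p under 0.05 there were 14 of the 44, beside 11.2% of all genes. The median interaction was 0.71, with 42 of 44 positive, which is a larger rise or a smaller fall in immature mice. Ccne1 (1.5 ± 0.56, adjusted p = 0.308), Ube2c (1.42 ± 0.48, adjusted p = 0.271) and Mybl2 (0.99 ± 0.55, adjusted p = 0.499) had the largest values of their lists. The counts of 29 and 8 called genes at the 2 ages are therefore not shown to differ for any single gene. For 2 to 5dpr, 0 genes passed (0 at an unadjusted p under 0.05; DESeq2 called 0), beside 0% of all genes, with Cdt1 (-0.90 ± 0.56, adjusted p = 0.686), Ube2c (-0.73 ± 0.50, adjusted p = 0.703) and Foxm1 (-0.78 ± 0.45, adjusted p = 0.669) at the top of their lists.

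Replication and mitosis genes were set against each other within each library, and the difference was lowest at 5dpr. The mean log2 CPM of the replication list minus that of the mitosis list was -0.14 ± 0.0649 (SD, n = 4) in immature mice at 5dpr and -0.11 ± 0.0178 (n = 3) in mature mice, and all 7 libraries were below 0. In immature mice the difference was 0.06 ± 0.10 at baseline, 0.17 ± 0.25 at 0dpr, 0.02 ± 0.0209 at 2dpr and 0.16 ± 0.13 at 14dpr. In mature mice it was 0.02 ± 0.0454, 0.20 ± 0.21, 0.14 ± 0.10 and 0.04 ± 0.0662. Immature 2dpr libraries lay between -0.01 and 0.04. With medians over the lists in place of means the 5dpr values were 0.31 and 0.30, so the sign depended on the summary, and these were again the lowest of the 5 stages at each age. The lists share libraries and were not tested against each other.

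**Figure D5:**
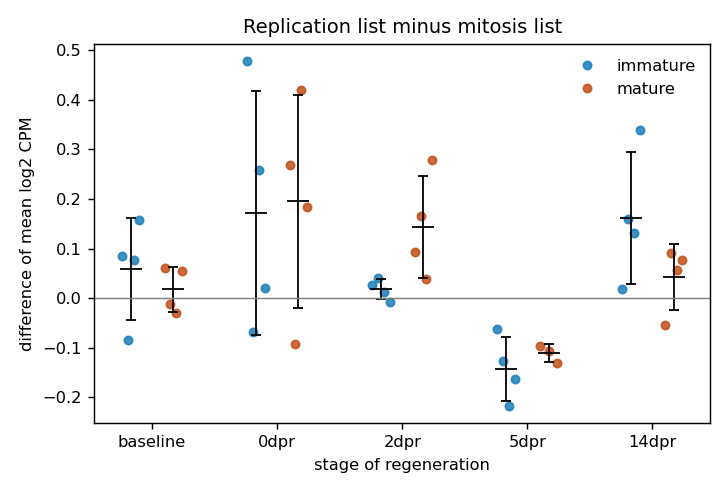
Difference between the mean log2 CPM of the replication list and of the mitosis list by stage, with 1 point per library, marks at the group mean and bars of 1 SD. All 7 libraries at 5dpr lie below 0, and 0dpr libraries spread the most, from -0.09 to 0.48.

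Within the lists, subunits of the same complex were not always called together. Of the 6 helicase genes Mcm2 to Mcm7, 4 rose from 0 to 2dpr in immature mice, beside 21.8% of all genes. All 6 fell at 0dpr against baseline in immature mice, beside 4.66% of all genes. In mature mice all 6 fell from baseline to 14dpr, beside 16.4% of all genes, with log2 fold changes from -2.08 to -1.27. The ribonucleotide reductase subunits both fell at 14dpr in mature mice, Rrm1 (-1.70 ± 0.26, adjusted p = 2.23e-06) and Rrm2 (-2.54 ± 0.40, adjusted p = 4.30e-06), and the difference between them was not tested. Of the kinetochore genes Cenpa, Cenpe and Cenpf, Cenpe alone passed in the immature rise at 2dpr.

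Further genes of the cycle were called mostly in the direction of the 44. At 0dpr against baseline, 20 of 30 further replication genes and 19 of 30 further mitosis genes fell in immature mice, and 17 and 22 fell in mature mice, where 1 mitosis gene rose, beside 4.66% and 10.6% of all genes that fell at the 2 ages. Of 30 further replication genes, 18 rose and 0 fell from 0 to 2dpr in the immature callus, and the mature callus had 4 higher and 0 lower, beside 21.8% and 22.7% of all genes that rose. Hells, a chromatin remodeller, rose at both ages (1.41 ± 0.32, adjusted p = 0.000420 and 1.54 ± 0.32, adjusted p = 0.000126), as did the chromatin assembly factors Chaf1b in immature mice (1.5 ± 0.48, adjusted p = 0.0110) and Chaf1a in mature mice (1.01 ± 0.31, adjusted p = 0.00764). Of 30 further mitosis genes, 21 rose and 1 fell in the immature callus, with 2 higher and 1 lower in the mature callus. Both mature shares of genes that rose were below that of all genes. Cep55, which acts in the final cut between daughter cells, rose from 4.97 ± 3.94 CPM to 20.8 ± 1.75 CPM (SD, n = 4) in immature mice (2.07 ± 0.36, adjusted p = 1.56e-05) and from 3.46 ± 2.09 CPM to 19.8 ± 6.69 CPM in mature mice (2.51 ± 0.38, adjusted p = 8.97e-07). Kif2c rose in immature mice (1.78 ± 0.33, adjusted p = 4.03e-05) and Anln in mature mice (1.25 ± 0.31, adjusted p = 0.00114). Pttg1, the gene of securin, fell at both ages (-1.15 ± 0.22, adjusted p = 6.72e-05 and -1.34 ± 0.22, adjusted p = 5.12e-06), from 48.3 ± 8.75 CPM to 21.8 ± 2.99 CPM and from 56.3 ± 11.1 CPM to 22.1 ± 7.56 CPM. From 2 to 5dpr, edgeR called 0 of 30 genes of each list at both ages (2 further replication genes at an unadjusted p under 0.05 in immature mice). From baseline to 14dpr, 21 further replication and 22 further mitosis genes fell in immature mice, and 28 and 29 fell in mature mice, beside 15.1% and 16.4% of all genes. Orc1, a subunit of the origin recognition complex, led at both ages (-2.10 ± 0.38, adjusted p = 3.66e-05 and -3.22 ± 0.40, adjusted p = 6.27e-08), followed by Ticrr (-1.5 ± 0.32, adjusted p = 0.000391 and -2.35 ± 0.33, adjusted p = 7.27e-07). Of mitosis genes, Kif15 led at both ages (-1.45 ± 0.32, adjusted p = 0.000593 and -2.28 ± 0.33, adjusted p = 1.20e-06), with Dlgap5 next in immature (-1.37 ± 0.36, adjusted p = 0.00361) and Cdca3 in mature mice (-2.21 ± 0.41, adjusted p = 6.16e-05).

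Genes of G1 entry and cycle inhibitors, 16 in all, were divided in direction. From 0 to 2dpr 7 rose and 2 fell in the immature callus, with 4 called in each direction in the mature callus, and these shares of 56.2% and 50% were near the 44% and 47.6% of all genes called. Ccnd1, the cyclin that answers to growth signals, rose from 37.4 ± 5.93 CPM to 110.5 ± 18.7 CPM in immature mice (1.56 ± 0.20, adjusted p = 9.89e-08) and from 31.3 ± 5.91 CPM to 102 ± 40.5 CPM in mature mice (1.70 ± 0.21, adjusted p = 1.54e-08). In immature mice the retinoblastoma relative Rbl2 (-0.73 ± 0.12, adjusted p = 4.25e-06) and the inhibitor Cdkn1b (-0.56 ± 0.13, adjusted p = 0.000500) fell. In mature mice Cdkn1a, an inhibitor of cyclin-dependent kinases, rose (1.39 ± 0.27, adjusted p = 6.75e-05), and Cdkn1c (-1.27 ± 0.26, adjusted p = 0.000126) and Cdkn2c (-1.07 ± 0.30, adjusted p = 0.00382) fell. From 2 to 5dpr Cdkn1c, an imprinted inhibitor of cyclin-dependent kinases, rose from 16.0 ± 4.44 CPM to 68.7 ± 14.0 CPM in immature mice (2.10 ± 0.26, adjusted p = 1.00e-06). In mature mice it rose from 7.66 ± 2.25 CPM to 77.0 ± 16.4 CPM (3.32 ± 0.28, adjusted p = 1.72e-10). Over the same step Ccnd1 (-0.77 ± 0.20, adjusted p = 0.0116) and Cdk6 (-0.65 ± 0.20, adjusted p = 0.0410) fell in immature mice, and Cdkn2b rose in mature mice (1.41 ± 0.42, adjusted p = 0.0214). At 14dpr against baseline Cdkn2b rose at both ages (1.65 ± 0.41, adjusted p = 0.00198 and 2.46 ± 0.43, adjusted p = 2.21e-05) and Cdkn2d fell at both (-0.93 ± 0.25, adjusted p = 0.00420 and -1.47 ± 0.25, adjusted p = 2.02e-05). Rb1 fell in immature (-0.82 ± 0.14, adjusted p = 9.73e-06) and Rbl1 in mature mice (-1.17 ± 0.25, adjusted p = 0.000300). Cdkn2a, a tumour suppressor locus, passed as well in both 14dpr comparisons and from 0 to 2dpr in immature mice. In immature mice it was at 0 in all 4 baseline libraries, 0.0373 ± 0.0747 CPM at 0dpr, 0.618 ± 0.623 CPM at 2dpr and 0.787 ± 0.207 CPM at 14dpr, and no fold is given against levels of so few reads. In mature mice Cdkn2a was at 0.266 ± 0.277 CPM at baseline and 1.32 ± 0.384 CPM at 14dpr (2.30 ± 0.74, adjusted p = 0.0156). That baseline is also a level of few reads, with an SD above its mean, so the size of the mature change is uncertain.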

How the data were processed

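The authors made stranded TruSeq libraries from total RNA, sequenced 150 bp read pairs on a NovaSeq sequencer in separate runs, and mapped and counted them per gene with STAR 2.5.2a on GRCm38. Which library was in which run, and the strand setting of the counting, are not given in the sources used here. They deposited raw counts for 48733 genes, counts for the 21204 genes they kept, and a normalized signal, which is CPM on library sizes scaled by TMM factors. CPM computed here from the kept counts equalled the deposited signal to a relative difference of 5e-15.

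The kept counts of 39 libraries were fitted in 1 model with edgeR 4.0.16 (limma 3.58.1, R 4.3.3), with TMM factors, 1 coefficient for each of 10 groups and quasi-likelihood tests. P-values were adjusted over all 21204 genes by Benjamini-Hochberg, and a gene was called at an adjusted p under 0.05. Mean log2 CPM used a prior count of 2. Libraries held 6057756 to 21537070 counts. The fitting script was tested on simulated counts.

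The 44 genes and all lists were chosen with earlier results of these data known. Statistics are printed for the genes of each list with the largest and the smallest change in a comparison, for called genes against the main direction, for uncalled genes where over 80% were called, and for further genes of the 8 with values in every sample. Smallest changes were left out where under 8 genes were called. Of further lists, the 2 largest called changes in each direction are named.

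Alternatives were RLE size factors, DESeq2 1.42.0, other gene filters, fits restricted to the libraries compared, a block for the replicate number, the muscle or erythroid marker mean as a covariate, each library left out in turn, prior counts of 0.5 and 5, and medians over lists. No pair of libraries in a group differed by as little as counting noise, the smallest ratio of squared difference to counting variance being 5.36. Only between immature and mature mice at 0dpr did all 4 same-numbered pairs have correlated deviations (0.109 to 0.207). The labels do not say what a shared number means.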

Additional observations from a re-analysis of the deposited data

Results flagged for a closer look

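Of 99 groups of 4 libraries tested for a library far from the other 3 by Dixon's ratio, for the 8 genes with values in every sample and for list means, 5 were flagged, and chance flags about 1 in 20. Mki67 in mature baseline replicate 4 was 882 CPM, below 1176, 1185 and 1211 CPM in the other libraries. Mki67 in immature 14dpr replicate 2 was 251 CPM, above 199, 203 and 206 CPM. Ccnb1 in mature 14dpr replicate 4 was 30.4 CPM, above 20.5, 21.1 and 21.3 CPM. Mcm5 in immature baseline replicate 6 was 134 CPM, above 105, 105 and 108 CPM. E2f1 in mature baseline replicate 2 was 18.1 CPM, above 10.1, 11 and 11.4 CPM.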

How the results depend on the processing

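The number of the 44 genes called moved by over 1.5 times in the fits that follow. With only the libraries compared in the fit, it was 0 (immature 0dpr vs baseline), 18 (immature 2dpr vs 0dpr), 7 (immature 5dpr vs 2dpr), 22 (immature 14dpr vs 5dpr), 2 (mature 2dpr vs 0dpr), 40 (mature 14dpr vs 5dpr), 4 (immature vs mature at baseline) and 21 (immature 2dpr vs baseline). With the muscle mean as a covariate, it was 4 for immature 0dpr vs baseline, 0 for immature 2dpr vs 0dpr, mature 0dpr vs baseline and mature 2dpr vs 0dpr, 3 for immature 14dpr vs 5dpr and 2 for immature 2dpr vs baseline. With the erythroid mean, it was 7, 4 and 0 for immature 0dpr vs baseline, 14dpr vs 5dpr and 14dpr vs baseline, and 33, 17, 1 and 2 for mature 2dpr vs 0dpr, 14dpr vs 5dpr, 14dpr vs baseline and 2dpr vs baseline. The 2 mature genes for 2dpr vs baseline were higher at 2dpr, with 0 lower. Where edgeR called 0 in these fits, the genes at an unadjusted p under 0.05 were 41 with only the libraries compared (immature 0dpr vs baseline), 1, 6 and 6 with the muscle mean (in the order above) and 2 with the erythroid mean. DESeq2 called 3 genes for immature 14dpr vs 5dpr, and the full table of genes with at least 1 count gave 5 for mature 14dpr vs 5dpr. The causes were not tested.

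With a block for the replicate number, 15 genes were called for immature 0dpr vs baseline, 17 for immature 14dpr vs baseline and 2 for immature 2dpr vs baseline, and the block moved no other count of the 44 genes by over 1.5 times. Over all 154 same-numbered pairs the mean correlation of deviations was 0.00847, so the block fit is no paired analysis.

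When 1 library was left out, the count ranged from 4 to 44 for immature 0dpr vs baseline, 19 to 42 for immature 2dpr vs 0dpr, 0 to 1 for immature 14dpr vs 5dpr, 9 to 41 for mature 0dpr vs baseline, 4 to 16 for mature 2dpr vs 0dpr, 0 to 1 for mature 5dpr vs 2dpr, 0 to 5 for mature 14dpr vs 5dpr, 0 to 10 for immature vs mature at 0dpr, 2 to 4 for immature 2dpr vs baseline and 13 to 27 for mature 2dpr vs baseline. Libraries whose omission moved a count by over 1.5 times are named beside the results.

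Some log2 fold changes turned. From 0 to 2dpr in immature mice, Pola1 was -0.73 with the muscle mean, Nusap1 was -0.0278 with RLE factors, -0.0261 by DESeq2, -0.85 with the muscle mean and -0.27 to 0.54 over libraries left out, and Mki67 was 0.0494 with the block, 0.77 with the erythroid mean and -0.40 to 0.59 over libraries left out. In mature mice, Cdt1 was 0.0354 and Cenpa 0.0377 in the full table, Cenpa 0.0138 with the block, and Cdt1, Cenpa, Ccna2 and Ube2c were 0.51, 0.80, 1.29 and 0.12 with the erythroid mean. Over libraries left out, Cdt1 was -0.34 to 0.18, Cenpa -0.31 to 0.21 and Ccna2 -0.42 to 0.20. With the muscle mean, mature Cenpe, Tyms, Kif20a and Foxm1 were -0.33, -0.24, -0.42 and -0.32. For 14dpr vs baseline, immature Gins2 and E2f1 were -0.29 and -0.26 with the muscle mean, and immature Pcna, mature Gins2 and mature E2f1 were 0.0417, 0.0104 and 0.0636 with the erythroid mean, with -0.26 to 0.0650 for mature E2f1 over libraries left out. For 2dpr vs baseline, immature Kif20a and mature Gins2 and E2f1 were -0.13, -0.0687 and -0.48 with the muscle mean, and immature Nusap1 and Mki67 and mature Cdc6, Kif20a and Pcna were 0.39, 0.15, 0.37, 0.74 and 0.79 with the erythroid mean, with -0.21 to 0.12 for mature Kif20a over libraries left out.

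Among the refitted log2 fold changes of named genes, 1671 kept direction and side of the threshold, 215 lost the call, 32 gained one and 46 turned. RLE factors put the median log2 fold change of all genes from 0 to 2dpr at -0.13 at both ages. With TMM factors it was -0.04 in immature and -0.05 in mature mice. The counts of each library are shared over the whole transcriptome, so a CPM is a relative level. Low genes such as Ccne1, with 10 reads in 1 library, carry the largest relative counting error.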
